A study of Mus musculus with 2 samples.

Results

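Splicing regulators and neuronal RNA-binding proteins were examined in the mouse hippocampus as 63 genes out of 55450 genes with transcripts in the deposited tables. A gene was taken in when it had at least 1 transcript typed protein_coding and its symbol belonged to 1 of 13 families. These are the SR proteins (Srsf, 11 genes), the related activators Tra2a and Tra2b, the Srrm genes (4), the hnRNP genes (Hnrnp, 20), the Ptbp genes (3), Rbfox (3), Nova (2), Celf (6), Elavl (3 of its genes), Khdrbs (3), Mbnl (3), Qk and Msi (2). The rule itself uses names and transcript types and no measured value.

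The samples were 2 libraries of total RNA from hippocampus of male B6CASTF1/J mice at 36 days, a first-generation cross of C57BL/6J with CAST/EiJ, untreated as far as the labels say. They are called replicate 1 and replicate 2 and form a single group, so no comparison between conditions exists. The labels name the tissue as a layer of hippocampus without saying which layer, and give both libraries 1 donor identifier but separate biosamples. They do not state outright that the libraries come from separate animals, so an SD with n = 2 is a spread between 2 libraries. Each library was made from 300 ng of RNA with ERCC spike-in transcripts, and the gene tables held 28665109 and 29633722 expected counts. Differences between replicate 1 and replicate 2 are differences between these 2 libraries, and p-values measure counting error only. Markers of excitatory neurons, interneurons, astrocytes and oligodendrocytes all passed 1 TPM (a level corrected for transcript length and for the size of the library) in both libraries. The summed TPM of 5 choroid plexus markers was 60.4 in replicate 1 and 263 in replicate 2. All 5 were higher in replicate 2. Enpp2 alone had 52.4 and 75.4 TPM, whereas Ttr had 3.62 and 179 TPM. Folr1 had 0.23 and 1.94 TPM and Clic6 had 0.17 and 1.46 TPM. The sum was 201 and 171 for 3 CA1 markers and 63.7 and 84.1 for 3 dentate granule markers. The libraries thus differed in these markers, and their part in the results on splicing regulators was not tested.

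Splicing removes introns from pre-mRNA, and these proteins decide which exons are kept by binding short motifs in exons and introns. SR proteins generally favour the use of an exon, and many hnRNP proteins oppose it. Rbfox, Nova, neuronal Elavl, Celf, Mbnl and Ptbp2 proteins set the exon choices by which neuronal transcripts differ from those of other tissues. Many of these genes also control themselves: an exon or intron with a premature stop codon is kept in part of their transcripts, which are then degraded by nonsense-mediated decay.

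The sequences below belong to some of the exons whose inclusion is given further on. They were read from the GENCODE M21 transcripts, and coordinates are of mm10. In the first set the capitals mark an alternative exon, and the lower-case bases around it are coding bases of its neighbours. Ptbp1 (chr10:79862014-79862047, plus strand) and Ptbp2 (chr3:119724612-119724645, minus strand) have a coding exon of 34 nt whose skipping shifts the reading frame and gives a decay transcript. The exons of Mbnl1 (54 nt at chr3:60614683-60614736 and 36 nt at chr3:60621423-60621458, plus strand) and of Mbnl2 (54 nt at chr14:120395712-120395765 and 36 nt at chr14:120403336-120403371, plus strand) keep the frame, as does the 36-nt exon of Hnrnpa2b1 (chr6:51467391-51467426, minus strand), which distinguishes the B1 from the A2 form of that protein.
Ptbp1 34 nt: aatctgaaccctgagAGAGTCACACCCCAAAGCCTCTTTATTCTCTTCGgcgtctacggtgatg
Ptbp2 34 nt: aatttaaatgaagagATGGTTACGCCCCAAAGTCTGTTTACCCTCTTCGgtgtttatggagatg
Mbnl1 54 nt: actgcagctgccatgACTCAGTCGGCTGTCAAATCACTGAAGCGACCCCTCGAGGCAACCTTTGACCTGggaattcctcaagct
Mbnl2 54 nt: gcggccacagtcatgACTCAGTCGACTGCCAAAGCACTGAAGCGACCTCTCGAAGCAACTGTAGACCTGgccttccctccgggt
Mbnl1 36 nt: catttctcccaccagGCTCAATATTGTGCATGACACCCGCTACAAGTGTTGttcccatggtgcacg
Mbnl2 36 nt: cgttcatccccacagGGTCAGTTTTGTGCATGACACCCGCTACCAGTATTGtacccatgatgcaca
Hnrnpa2b1 36 nt: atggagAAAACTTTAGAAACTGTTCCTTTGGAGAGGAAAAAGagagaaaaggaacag

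The 34-nt exons of Ptbp1 and Ptbp2 had the same base at 26 of 34 positions (76.5%). The 54-nt exons of Mbnl1 and Mbnl2 matched at 46 positions (85.2%) and their 36-nt exons at 31 positions (86.1%). Ptbp3 also has an annotated 34-nt exon, but it matched that of Ptbp1 at 5 positions and begins after 8 coding bases, at the start of the protein.

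The second set holds the stop-bearing exons with a mean inclusion of at least 20%. Inclusion counts only transcripts that hold or skip the exon between the same neighbours, and leaves out other transcripts of the gene. Each sequence runs from the first base of the exon to the stop codon, which stands in capitals, and the rest of the exon is not shown. The exons were those of Srsf3 (456 nt, chr17:29039454-29039909, plus strand), Srsf6 (268 nt, chr2:162932815-162933082, plus strand), Srsf9 (358 nt, chr5:115328347-115328704, plus strand), Tra2a (306 nt, chr6:49252803-49253108, minus strand), Tra2b (276 nt, chr16:22258986-22259261, minus strand) and Hnrnpll (83 nt, chr17:80044940-80045022, minus strand).
Srsf3 456 nt: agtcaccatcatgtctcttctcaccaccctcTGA
Srsf6 268 nt: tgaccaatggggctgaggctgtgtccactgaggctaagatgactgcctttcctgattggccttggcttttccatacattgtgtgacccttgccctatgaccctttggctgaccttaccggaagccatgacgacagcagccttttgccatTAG
Srsf9 358 nt: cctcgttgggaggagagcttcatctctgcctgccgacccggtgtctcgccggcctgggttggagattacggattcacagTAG
Tra2a 306 nt: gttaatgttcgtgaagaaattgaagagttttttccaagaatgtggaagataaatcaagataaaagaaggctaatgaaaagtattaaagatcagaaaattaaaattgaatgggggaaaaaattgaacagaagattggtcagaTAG
Tra2b 276 nt: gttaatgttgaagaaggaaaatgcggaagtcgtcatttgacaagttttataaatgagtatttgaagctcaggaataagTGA
Hnrnpll 83 nt: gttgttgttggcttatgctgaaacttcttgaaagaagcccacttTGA

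The stop codon followed 31 coding bases into the exon in Srsf3, 44 in Hnrnpll, 78 in Tra2b, 79 in Srsf9, 141 in Tra2a and 149 in Srsf6. 

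Nearly all of these regulators were expressed. Of the 63 genes, 62 reached 1 TPM in both libraries, beside 58% of all 21901 genes with a protein_coding transcript. Their median level was 56.4 TPM, and that of the 12704 protein-coding genes over 1 TPM was 15.1 TPM. Of the 62, 56 lay above that median and 25 in the top 10% of it. The levels ran from 7 ± 0.0849 TPM (SD, n = 2) for Khdrbs2 to 274 ± 13.4 TPM for Hnrnpk. Together the 63 genes took 0.893% of gene counts in replicate 1 and 0.894% in replicate 2. In bulk tissue, fewer cells of a type and less RNA per cell cannot be told apart.

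**Figure D1:**
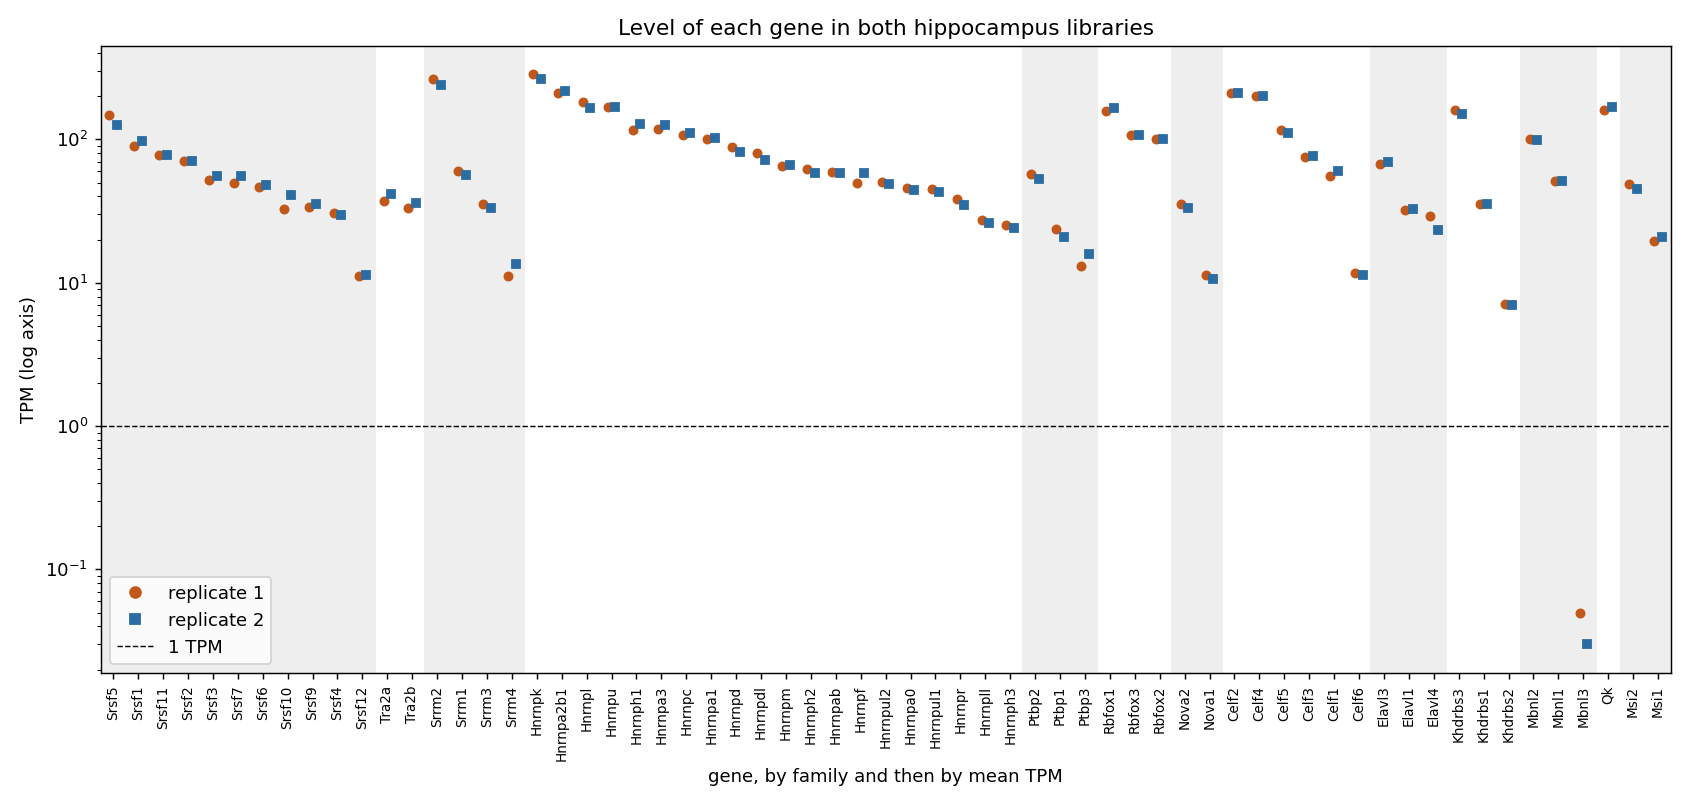
TPM of each of the 63 genes on a log axis, by family and then by mean level, with replicate 1 as circles and replicate 2 as squares. All genes but Mbnl3 lie between 6.94 and 284 TPM in both libraries, far above the dashed line at 1 TPM, and the symbols of a gene nearly coincide.

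The SR proteins summed to 643 TPM in replicate 1 and 648 TPM in replicate 2. Srsf5 led with 147 and 126 TPM, ahead of Srsf1, the founding SR protein, with 90.3 and 98.2 TPM, and Srsf11 with 78.1 and 77.4 TPM. Srsf12 was lowest, at 11.2 and 11.4 TPM. Srsf2 came close to Srsf11, at 70.6 and 71.2 TPM. Srsf5 held 22.9% and 19.4% of the family's TPM.

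Tra2a and Tra2b, which bind purine-rich exonic enhancers, had similar levels, 37.2 and 41.7 TPM for Tra2a and 33.03 and 36.1 TPM for Tra2b. Among the Srrm genes, Srrm2, a large scaffold protein of nuclear speckles, had 265 and 240 TPM and Srrm1 had 60.05 and 56.5 TPM. Srrm3, an activator of neuronal microexons, had 35.5 and 33.01 TPM. Its paralogue Srrm4, the best-known microexon activator, was the lowest of the family at 11.2 and 13.5 TPM. The exons of Srrm2 overlap those of Elob on the opposite strand, which had 138 and 141 TPM, and without a stated strand setting reads in the overlap cannot be told apart. In all, 21 of the 63 genes have an exon overlap of this kind, several of them with a partner that had no TPM.

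The 20 hnRNP genes summed to 1924 TPM in replicate 1 and 1896 TPM in replicate 2, the largest family sum, though it also has the most genes. Hnrnpk, a poly-C binding protein, had 284 and 265 TPM. Hnrnpa2b1, which binds RNAs that travel into dendrites, had 211 and 216 TPM, and Hnrnpl, a binder of CA repeats, had 181 and 165 TPM. Hnrnph3 was lowest, with 25.3 and 24.1 TPM, and overlaps Rufy2 on the opposite strand, which had 29.2 and 25.3 TPM. Hnrnpa1 had 101.1 and 101.5 TPM. It was the only member whose posterior SD, the deposited uncertainty of dividing reads among genes, reached 1% of its count, at 65.5 and 68.8 on 3592.5 and 3725 counts. That of Hnrnpa3 was 50.5 and 59.4 on 7048 and 7518 counts, and smaller values above 0 occur in other members.

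Ptbp2, the neuronal polypyrimidine tract-binding protein (chr3:119718742-119784466, minus strand), led its family with 57.0 and 53.0 TPM. Ptbp1 (chr10:79854427-79864771, plus strand), which prevails in most other tissues and represses neuronal exons, had 23.6 and 20.8 TPM, and Ptbp3 had 13.1 and 15.8 TPM. Ptbp2 was 2.48 ± 0.0903 times as high as Ptbp1 (SD, n = 2). In the other deposited transcript table, made from the same libraries, the ratio was 5.26 ± 0.116. The order of Ptbp1 and Ptbp3 turned round there, with 24.2 and 21.6 TPM for Ptbp1 and 25.8 and 22.1 TPM for Ptbp3. Ptbp1 exons overlap Plppr3 on the opposite strand, which had 13.7 and 11.3 TPM in the first table.

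The 3 Rbfox genes, whose proteins bind GCATG, were all high and near each other. Rbfox1 (chr16:5885355-7411526, plus strand) had 159 and 166 TPM. Rbfox3, whose protein is the neuronal nuclear antigen NeuN, had 107 and 106 TPM, and Rbfox2 had 101 TPM in both libraries. In the other table Rbfox3 had 168 and 166 TPM and Rbfox2 had 158 and 166 TPM, so that this pair was not clearly ordered. Rbfox1 was 1.52 ± 0.0555 times as high as Rbfox3 and 1.60 ± 0.0538 times as high as Rbfox2.

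Nova proteins are known from neurons and were first described as autoantigens. Nova2 had 35.2 and 33.4 TPM and Nova1 had 11.3 and 10.6 TPM, a ratio of 3.13 ± 0.0113. Both annotated transcripts of Nova2 received 50% of its TPM in each library and each table, so the tables do not separate them.

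The Celf genes split into a high and a low end. Celf2 had 211 and 210.2 TPM and Celf4 had 201 TPM in both libraries, a ratio of 1.05 ± 0.00294. Celf5 followed with 117 and 111 TPM, Celf3 with 75.7 and 77.0 TPM and Celf1, the widely expressed member, with 55.5 and 60.3 TPM. Celf6 was lowest at 11.7 and 11.3 TPM, so that Celf2 was 18.3 ± 0.336 times as high. The first 5 genes of the family each stood clear of their neighbours in this order by more than their spread.

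Among the Elavl genes, which stabilise AU-rich transcripts, the neuronal Elavl3 had 67.2 and 69.4 TPM and the ubiquitous Elavl1 had 32.4 and 32.8 TPM. The neuronal Elavl4 (chr4:110203722-110351909, minus strand) had 29.3 and 23.4 TPM, below Elavl1 in both libraries. Elavl1 exons overlap Ccl25 on the opposite strand, which had 9.63 and 11.25 TPM. In the other table Elavl4 had 80.4 and 60.1 TPM and Elavl1 had 51.8 and 54.01 TPM, so the order of this pair depended on the table. Elavl2, a neuronal paralogue outside the member rule, had 40.0 and 38.1 TPM.

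Khdrbs3, also called T-STAR or SLM2, had 161 and 151 TPM. Khdrbs1, the broadly expressed Sam68, had 35.4 and 35.6 TPM and Khdrbs2 had 7.06 and 6.94 TPM. By TPM, Khdrbs3 was 22.3 ± 0.784 times as high as Khdrbs2, and Srrm2 was 20.7 ± 4.20 times as high as Srrm4. By expected counts both ratios were smaller. Khdrbs3 had 3963 and 4130 counts and Khdrbs2 had 348 and 373, and Srrm2 had 21417 and 21230 and Srrm4 had 1550 and 1682. These spans were not tested against each other.

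Mbnl2 had 101 and 98.4 TPM and Mbnl1 had 51.1 and 51.2 TPM, a ratio of 1.95 ± 0.0322. Mbnl3 (chrX:51117269-51206532, minus strand) was close to absent at 0.05 and 0.03 TPM, which rest on 2 counts and 1 count. The other table gave Mbnl3 3.12 and 3.23 TPM, of which 97.1% and 100% were placed in the retained-intron transcript Mbnl3-206. Qk, whose STAR-domain protein is needed for myelination and is abundant in glia, had 162 and 169 TPM. The musashi genes, known from neural progenitors and glia, were lower, with Msi2 at 48.8 and 44.8 TPM and Msi1 at 19.5 and 20.95 TPM.

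In 12 families of more than 1 gene, the leading gene held a median of 56.9% of the family's TPM. The share was 14.4 ± 0.554% for Hnrnpk and 78.6 ± 0.824% for Khdrbs3 (SD, n = 2). A leading share cannot fall below an equal split among the genes of its family. That floor is lower for the 20 hnRNP genes than for the 3 Khdrbs genes. The shares and their median therefore depend on family size and do not rank families of unlike size. By expected counts, which are not divided by length, the shares of these same genes were 8.25% and 58.8%, and that of Nova2 was 86.5%. The leading gene itself changed with the scale in the hnRNP and Rbfox families. Hnrnpu had 10437 and 10751 counts and Hnrnpk had 6464 and 6667. Rbfox2 had 8592 and 8950 counts and Rbfox1 had 7703 and 8527. By TPM, the other table named the same leading gene in every family.

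The 62 genes that averaged 10 or more expected counts were tested with a two-sided exact binomial test on rounded counts, scaled by TMM, with Benjamini-Hochberg adjustment over 18270 genes. A gene was called apart when it differed by at least 1.5-fold at an adjusted p under 0.05. Mbnl3, with 2 counts and 1 count, was not tested. None of the 62 was apart, beside 1.88% of all genes tested. That background was made up of 0.662% higher in replicate 1 and 1.22% higher in replicate 2. Over the 12541 genes with a mean count of at least 100 it was 0.893%. None of 62 is near such a share and is not read as a result about these genes. At an unadjusted p under 0.05 there were 20 of 62, beside 21.8%. The median log2 ratio of replicate 1 over replicate 2 was -0.012 in the 62 genes and 0.0024 over all genes tested. The median absolute log2 ratio was 0.052 in the 62 genes, against 0.11 over all genes tested and 0.068 over the 9567 genes with a mean count of at least 300.

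Small differences were larger than counting error in 13 of the 62 genes by the adjusted p alone, 6 higher in replicate 1 and 7 higher in replicate 2, which is 20.97% beside 11.4% of all genes tested. By direction the background was 4.83% higher in replicate 1 and 6.52% higher in replicate 2. The background reaches down to a mean count of 10, whereas Khdrbs2, with the fewest counts of the 62, had 348 and 373. Small differences are harder to call at low counts, and neither this share nor that by unadjusted p was computed at matched counts. The largest difference was that of Elavl4. Its counts were 1601 in replicate 1 and 1306 in replicate 2, a 1.26-fold ratio with a 95% counting interval of 1.17 to 1.36 (adjusted p = 2.27e-08, exact binomial test). Srsf10, an SR protein that represses splicing when dephosphorylated, had 1551 and 1960 counts and a ratio of 0.815 with an interval of 0.762 to 0.871 (adjusted p = 7.85e-08, exact binomial test). Elavl4 and Srsf10 were the only members past 1.2-fold at an adjusted p under 0.05, a call that 4.75% of all genes tested met.

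On the log2 scale the other genes higher in replicate 1 were Nova1 at 0.20 (adjusted p = 0.0261, exact binomial test), Hnrnpdl at 0.16, Srsf5 at 0.12, Celf5 at 0.07 and Srrm2 at 0.05. Those higher in replicate 2 were Srsf7 at -0.17, Ptbp3 at -0.16, Tra2a at -0.15, Rbfox1 at -0.10 and Hnrnph1 and Celf1 at -0.09. Without any threshold, 37 of the 62 genes, 59.7%, were higher in replicate 2, beside 49.4% of all genes tested.

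**Figure D2:**
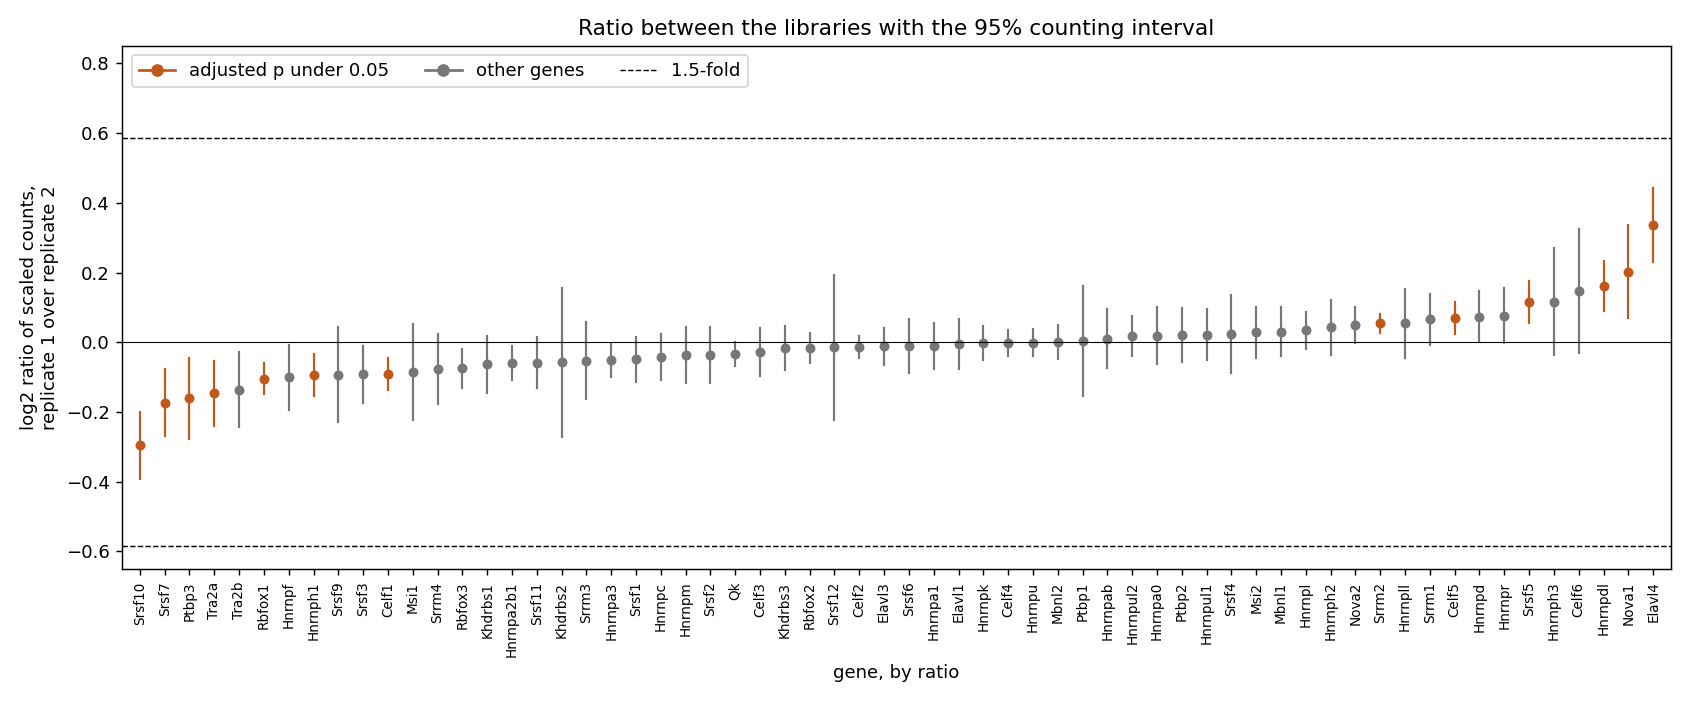
Log2 ratio of scaled counts, replicate 1 over replicate 2, for 62 genes ordered by ratio, with bars for the 95% counting interval and dashed lines at 1.5-fold. The 13 coloured genes have an adjusted p under 0.05, and Elavl4 at 0.34 and Srsf10 at -0.30 are the extremes.

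Much of the RNA of these genes was assigned to transcripts that the annotation does not type as protein_coding. Over the 62 genes at 1 TPM, transcripts without a protein_coding type held a median of 27.9% of a gene's TPM, against 12.49% over the 12704 protein-coding genes and 21.6% over those with at least 5 annotated transcripts. They held at least 25% in 32 of the 62 genes, which is 51.6% beside 31.5% of all protein-coding genes. Among genes with at least 5 transcripts the shares were 31 of 52 members, 59.6%, and 44.8%. Members had a median of 8 annotated transcripts and the background had 5. Of the summed TPM of the members, 8.84% and 8.81% lay in nonsense-mediated decay transcripts, 14.6% and 14.2% in retained-intron transcripts and 6.91% and 7.09% in processed transcripts in replicates 1 and 2.

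These shares depend on transcript length. The median length of the members' transcripts was 842.5 nt outside the protein_coding type and 2172.5 nt within it, and TPM divides by length. By share of expected counts, which does not, the median was 14.4% in members and 4.87% in the background, and 21 of 62 members reached 25%, which is 33.9% beside 16.7%. Total RNA also holds unspliced pre-mRNA, which cannot be told apart here from a retained-intron transcript.

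Of the SR protein genes, 9 of 11 were at or above 25%, with a median of 44.9%, where 31.5% of all protein-coding genes were. Both Tra2 genes passed 25%, with a median of 46.1%, as did 3 of 4 Srrm genes, 11 of 20 hnRNP genes, 2 of 3 Ptbp genes, 2 of 6 Celf genes and 1 gene each of Elavl, Khdrbs and Mbnl. By expected counts, where the background was 16.7%, 7 SR protein, 2 Tra2 and 7 hnRNP genes passed, with 1 gene each of Srrm, Ptbp, Celf, Khdrbs and Mbnl. The hnRNP median of 30.2% was 18.5% in the other table and 13.3% by counts, and the Srrm median of 36.1% was 12.4% by counts.

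No Rbfox, Nova, Msi or Qk gene passed 25% on either scale. The Rbfox median was 4.31% and the Nova median 6.71%. Of the 7 genes with no other type annotated, Srsf12, Hnrnpa0, Hnrnpab, Hnrnpf, Hnrnph2, Nova2 and Elavl3, the share is 0 by construction.

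In Hnrnpu, a scaffold of nuclear RNA (chr1:178321108-178337797, minus strand), 80.5% and 80.9% of TPM lay outside protein_coding transcripts. The decay transcript Hnrnpu-206 alone held 44.0% and 43.0%. Hnrnpu exons overlap Cox20 on the opposite strand, which had 15.2 and 17.4 TPM. In Srsf11 the share was 75.1% and 71.1%, with 70.8% and 68.7% in retained-intron transcripts. Srsf5 had 65.4% and 69.6%, led by the processed transcript Srsf5-206 at 33.4% and 32.4%. Srsf9, a short SR protein, had 65.2% and 69.8%, of which the decay transcript Srsf9-205 held 65.2% and 60.05%.

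Srsf3 followed with 61.7% and 58.7%, Hnrnph1 with 57.0% and 63.4%, Srsf6 with 55.3% and 58.6% and Hnrnpll, a paralogue of Hnrnpl, with 51.8% and 58.5%. The mean over both libraries exceeded 50% of TPM in both tables for these 8 genes. By expected counts the order was another one. Srsf9 had 70.4% and 73.4% there, Hnrnpu 51.4% and 51.5%, and Srsf6 44.5% and 46.9%. Tra2b, with 47.4% and 50.4% of TPM, and Hnrnpa1, with 44.8% and 46.7%, complete the 10 highest by TPM. All of the Hnrnpa1 share was in decay transcripts. The leading transcript lacked a protein_coding type in both libraries in Srsf5, Srsf9 and Hnrnpu, 3 of 62 genes, beside 5.85% of protein-coding genes.

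**Figure D3:**
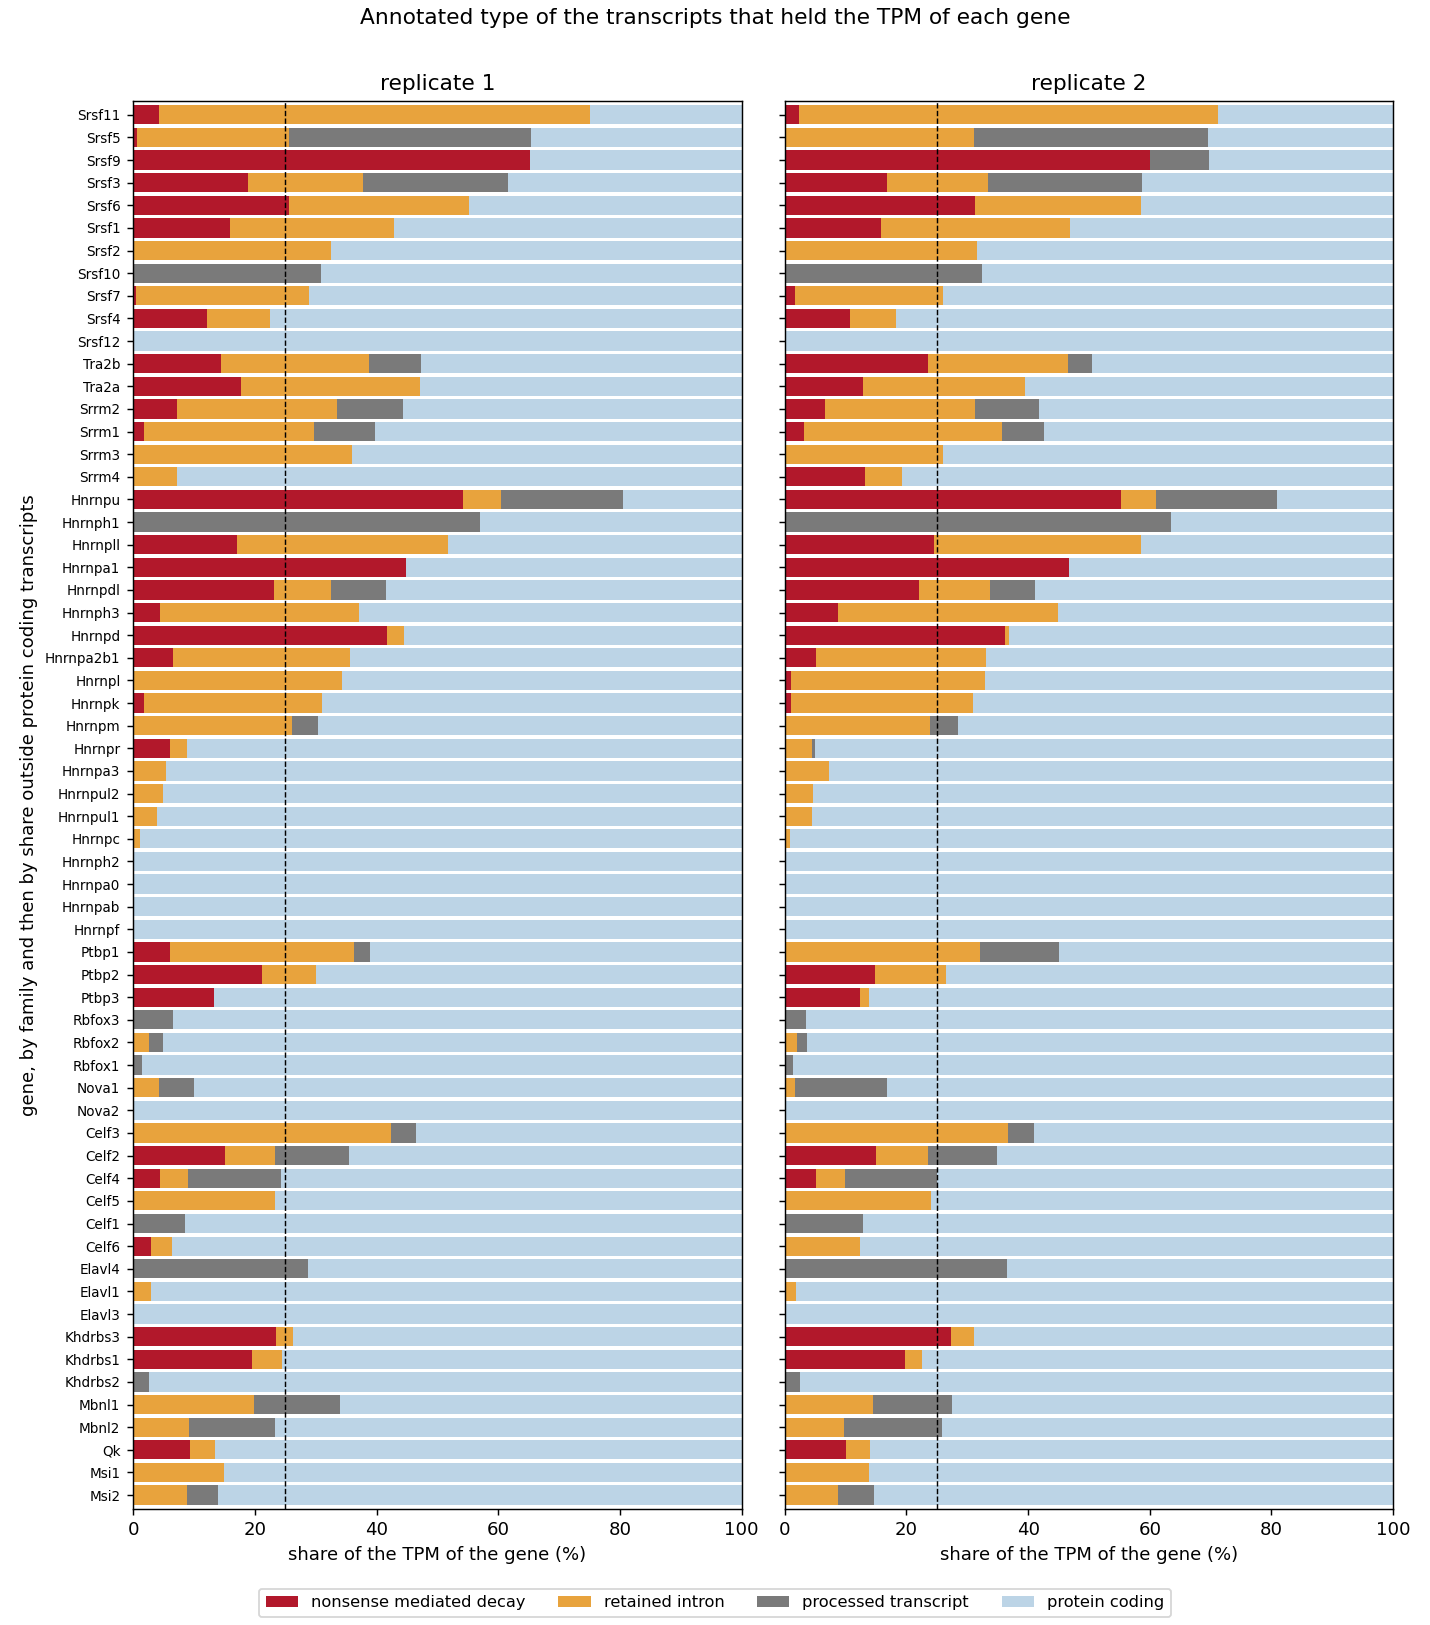
Share of each gene's TPM by annotated transcript type in replicate 1 (left) and replicate 2 (right), for 62 genes by family and then by share outside protein coding transcripts, with a dashed line at 25%. Srsf11 has the widest retained-intron segment of the SR protein genes, at 70.8% and 68.7%, Srsf9 has 65.2% and 60.05% in decay transcripts, and no Rbfox gene has a mean above 5.02% outside protein coding transcripts.

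Inclusion of single exons was examined after the transcript shares had been seen. The annotation gave 107 exon events in 45 of these genes with at least 5 TPM behind them in each library and table. An event is an alternative exon together with its neighbours on both sides. An exon found between other neighbours, or with another end, counts again, so there are fewer distinct exons than events. Inclusion is the TPM of transcripts that hold an exon over the TPM of those that hold or skip it. Of the 107 events, 15 in 12 genes concerned stop-bearing exons of decay transcripts, with a median inclusion of 14.2%. Another 7 in 6 genes concerned coding exons whose skipping gives a decay transcript, none of a length divisible by 3, with a median of 92.0%. A further 39 in 24 genes concerned coding exons skipped in coding transcripts, 30 of them in frame, with a median of 83.1%. The remaining 46 fitted none of these classes.

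The 6 stop-bearing exons shown above, out of 15 such events, were chosen for a mean inclusion of at least 20% in the first table. That they were often kept therefore follows from the choice, and their values are given here by gene. Inclusion was 68.0% and 66.6% for the exon of Srsf9, and 75.7% and 66.2% in the other table. For Srsf6 it was 36.4% and 43.0%, against 44.0% and 51.7% in the other table. For Srsf3 it was 32.96% and 27.1%, against 55.9% and 52.6%. The exon of Srsf9 therefore prevailed over skipping in both libraries and tables, and that of Srsf3 changed side of 50% with the table.

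Tra2b included its exon at 23.7% and 32.3%, and at 32.5% and 40.0% in the other table. Tra2a had 24.4% and 16.9%, but 60.1% and 53.0% in the other table. Hnrnpll had 22.1% and 30.2%, and 37.2% and 41.4% in the other table. The libraries differed by less than the tables for Tra2a, Hnrnpll and Srsf3. In contrast, the stop-bearing exon of Srsf7 was at 0.734% and 2.18%, and that of Hnrnpl at 6.28% and 6.07%.

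For Ptbp2 the 34-nt exon was included at 73.4% and 80.7%, and at 85.4% and 90.7% in the other table. This exon, known to be skipped where Ptbp1 prevails, was mostly kept in both libraries. The homologous exon of Ptbp1 was included at 84.1% and 100%, and at 84.3% and 88.1% in the other table. The TPM behind the Ptbp1 value was 8.85 in replicate 1 and 7.91 in replicate 2, lower than the 45.6 and 40.8 TPM behind that of Ptbp2. The coding exon of 187 nt of Srsf1 (chr11:88049412-88049598) was included at 49.2% and 50.9%.

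The paralogous exons of Mbnl1 and Mbnl2 differed in part. The 54-nt exon, known to affect nuclear localisation of these proteins, was included at 35.2% and 43.1% in Mbnl1 and at 42.2% and 40.0% in Mbnl2, so the genes overlapped. In the other table it was at 46.7% and 51.7% in Mbnl1 and at 54.6% and 55.4% in Mbnl2, which did not overlap. The 36-nt exon was included at 83.0% and 86.3% in Mbnl1, but at 34.7% and 34.3% in Mbnl2. In the other table the 36-nt values were 89.2% and 87.6% for Mbnl1 and 31.6% and 29.4% for Mbnl2, and the genes did not overlap in either table. With 2 libraries per gene, no test of this difference was made.

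Other exons of neuronal regulators differed in how steady they were. The 54-nt exon of Rbfox1, at 98.4% and 98.7%, and the 93-nt exon of Rbfox3, at 100% and 99.9%, were close to full inclusion. In Rbfox2 the 93-nt exon was at 91.7% and 90.4%, the 51-nt exon at 87.1% and 79.7% and the 43-nt exon at 42.5% and 51.3%. The 57-nt exon of Msi1 was at 80.5% and 93.05%, and the 63-nt exon of Celf6 at 0% and 13.5%, against 37.3% and 54.5% in the other table. The 144-nt exon of Celf2 was at 77.2% and 77.0%, and the 117-nt exon of Qk at 66.5% and 63.6%. The 39-nt exon of Elavl4 was at 79.3% and 97.1%, but at 100% in both libraries in the other table. The 141-nt exon of Hnrnpab was at 48.2% and 50.2%, so its transcripts were close to evenly divided.

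The 36-nt exon of Hnrnpa2b1 showed the widest gap between the tables among the exons whose sequence is shown. Its inclusion was 11.1% and 12.3% in the first table and 57.9% and 66.6% in the other table. The value of this exon therefore rests on how reads were assigned to transcripts, and neither value was taken as the better.

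**Figure D4:**
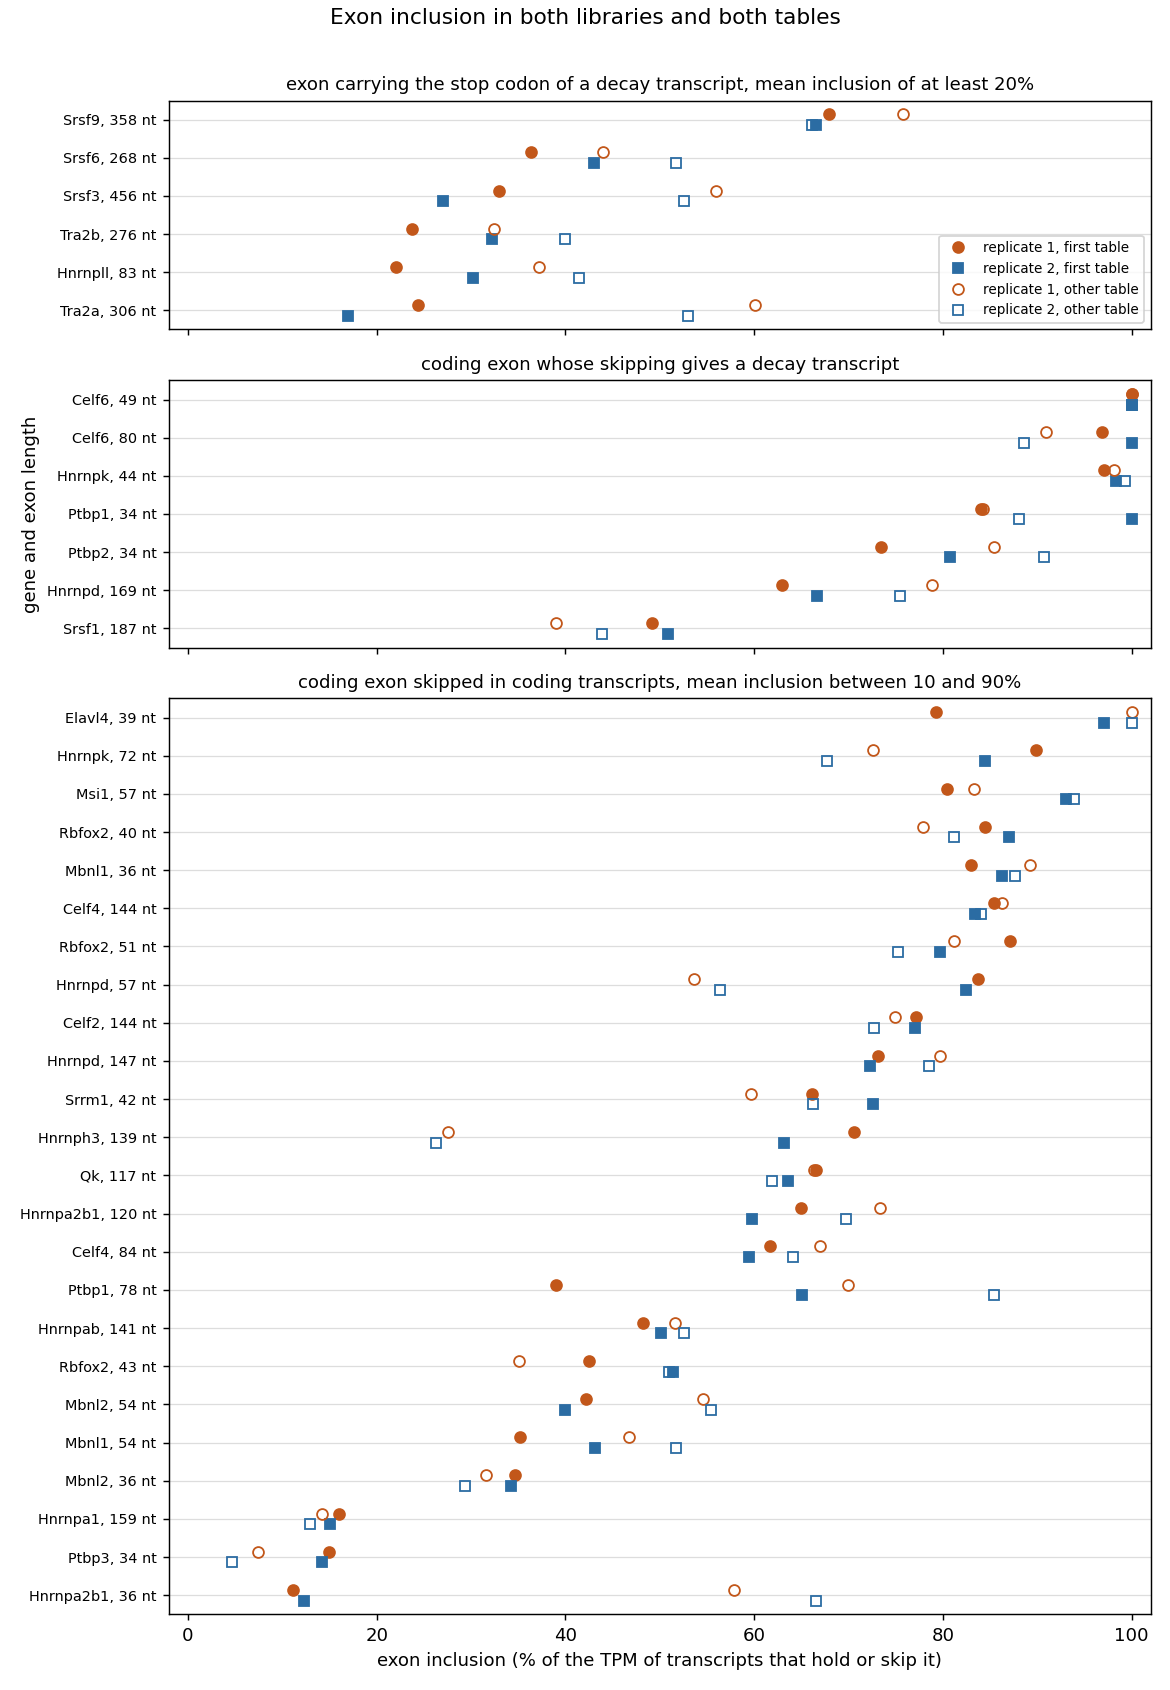
Inclusion of 6 stop-bearing exons, 7 coding exons whose skipping gives a decay transcript, and coding exons with a mean inclusion between 10% and 90%, with circles for replicate 1, squares for replicate 2, filled symbols for the first table and open symbols for the other table. The symbols of Mbnl2 at 36 nt lie between 29.4% and 34.7%, and those of Hnrnpa2b1 at 36 nt run from 11.1% to 66.6%.

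The leading transcript of a gene was the same in both libraries in 57 of the 62 genes, 91.9% beside 89.4% of protein-coding genes. In the other table it was the same in 49 genes, beside 87.2%. The exceptions in the first table were Srsf11, Hnrnpab, Hnrnpc, Ptbp1 and Khdrbs3. In Hnrnpab, the transcripts Hnrnpab-201 and Hnrnpab-203 held 50.03% and 46.7% in replicate 1 and 47.1% and 47.4% in replicate 2. In Khdrbs3, Khdrbs3-205 held 37.6% and 31.9% and Khdrbs3-201 held 30.8% and 31.9% in replicates 1 and 2. The leading transcript was the same in both libraries and both tables in 34 genes, 54.8% beside 68.6% of protein-coding genes.

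The tables also differed in gene level. TPM was higher in the other table by a median of 0.70 on the log2 scale in the 62 genes and 0.76 over all protein-coding genes, whose central 90% ran from 0.41 to 1.31. Ptbp1, at 0.05, and Srrm3, at 0.32, lay below this range. Elavl4, at 1.42, and Hnrnpr, at 1.33, lay above it. Ptbp1 had 23.6 and 20.8 TPM in the first table and 24.2 and 21.6 TPM in the other, and Elavl4 had 29.3 and 23.4 TPM against 80.4 and 60.1 TPM. Elavl4 was higher in replicate 1 in both tables.

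**Figure D5:**
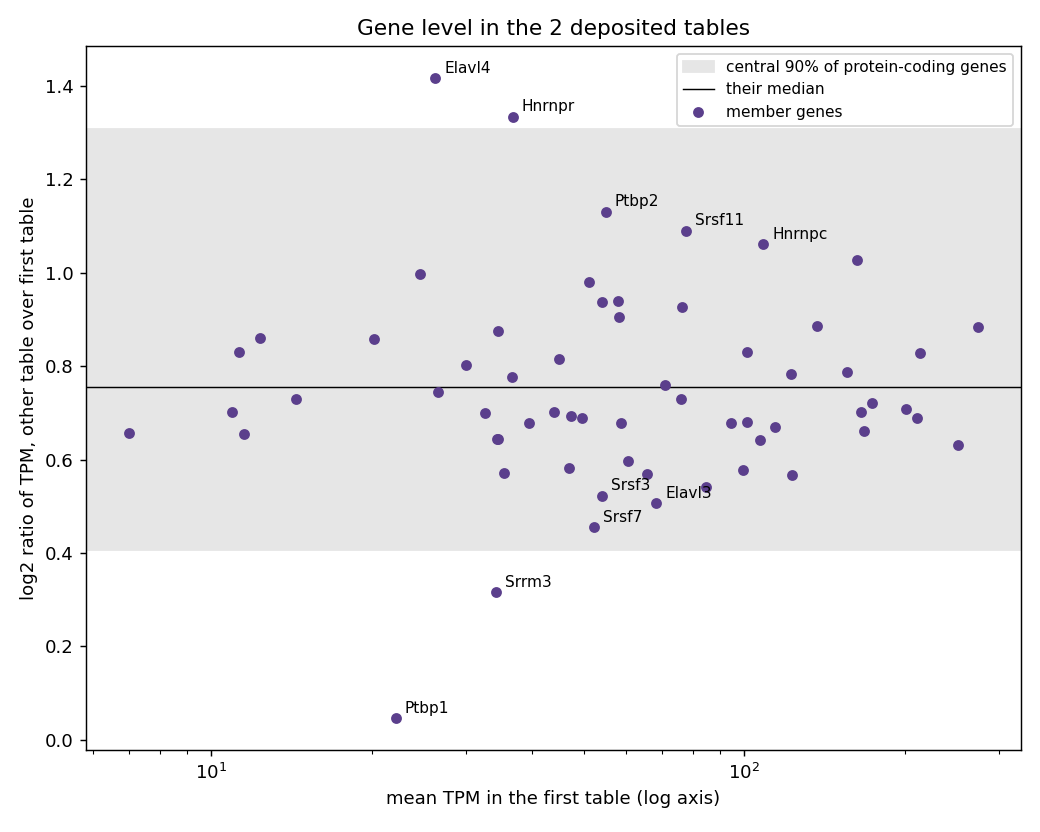
Log2 ratio of TPM, other table over first table, against the mean TPM in the first table (log axis), with the grey band and line for the central 90% and median of 12704 protein-coding genes. Of the 62 genes, Ptbp1 at 0.05 and Srrm3 at 0.32 lie below the band and Hnrnpr and Elavl4 above it.

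The machinery on which these regulators act was present as well. Partners were taken from 4 lists of 7 SR protein kinases, 18 core spliceosome genes, 22 other pre-mRNA binding proteins and 11 genes of nonsense-mediated decay. All were above 1 TPM in both libraries and none was apart. Of the kinases that phosphorylate SR proteins, Clk1 had 61.2 and 66.1 TPM, Srpk2 64.3 and 61.5 TPM and Clk4 58.4 and 55.6 TPM. All 7 kinase genes had at least 25% of TPM outside protein_coding transcripts, beside 31.5% of protein-coding genes and 44.8% of those with at least 5 transcripts. Their median was 59.04%, and Clk1 had 91.1%. The share was reached by 7 core spliceosome genes (median 19.3%), 13 of the other binding proteins (median 40.3%) and 3 decay genes (median 17.1%).

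Of 18 core spliceosome genes, Snrpn, the neuronal form of the Sm B protein, led with 345 and 323 TPM, ahead of Snrnp70 with 184 and 178 TPM and Sf1, the branch point binding protein, with 90.7 and 87.7 TPM. Of 22 other pre-mRNA binding proteins, Matr3, a partner of Ptbp proteins, had 226 and 214 TPM, Pcbp2 had 194 and 203 TPM and Ewsr1 had 155 and 148 TPM. Among the genes of nonsense-mediated decay, Smg1 had 37.1 and 36.2 TPM and Eif4a3 had 36.6 and 35.3 TPM. By the adjusted p alone, 1 kinase, 1 core spliceosome gene, 5 other binding proteins and 3 decay genes differed between the libraries (exact binomial test), beside 11.4% of all genes tested. All of these differed by less than 1.5-fold, and 1 of 7 kinases and 1 of 18 core spliceosome genes is near or below that background. The 5 of 22 other binding proteins and 3 of 11 decay genes are above it. That background reaches down to a mean count of 10 and was not matched on counts. Neither share is therefore read as a result about the lists. Of the 5, 2 were higher in replicate 1 and 3 in replicate 2, and all 3 decay genes were higher in replicate 2. Without any threshold, 10 of the 11 decay genes were higher in replicate 2, beside 49.4% of all genes tested.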

How the data were processed

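Each library had a gene table and 2 transcript tables, deposited by the authors. Expected counts, TPM and the percent of a gene's TPM in each transcript are in columns of the kind RSEM writes, per the file headers, and the other transcript table gives estimated counts and TPM in columns of the kind kallisto writes, per the file headers. Coordinates are of mm10 and transcripts of GENCODE M21, as the deposited description states. Program versions, aligner and strand handling: not given in the sources used here.

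Expected counts were rounded and scaled by TMM (edgeR 4.0.16, R 4.3.3), and the libraries were compared by an exact two-sided binomial test for genes with a mean count of at least 10 (scipy 1.17.1, pandas 2.3.3, Python 3.11.15). DESeq2 1.42.0 size factors served as an alternative. The comparison procedure was tested on simulated data. Intervals cover counting error only. Transcript types are those of the annotation. Every member could be named within its family, and from the lists the 3 highest genes, except an item that is not reported here. Members and lists were chosen with earlier results of these data known, and the exon inclusion was added after seeing the data.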

Additional observations from a re-analysis of the deposited data

How the results depend on the processing

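No member was apart with DESeq2 size factors, spike-in scaling, mean count minimums of 1 or 100, estimated counts of the other table, or shared reads left out. With a 1.2-fold minimum 2 members were called, and with no fold minimum 13. The median log2 ratio of the members, -0.012, was 0.0042 from TPM with 0.1 added. The median leading share of a family, 56.9%, was 56.3% in the other table and 56.9% to 57.2% with either replicate left out. It was 58.0% by expected counts, with the gene that led by TPM kept. The median share outside protein_coding transcripts, 27.9%, was 14.4% by counts and 26.0% to 27.5% with either replicate left out. Median inclusion of coding exons skipped in coding transcripts, 83.1%, was 77.7% in the other table and 79.3% to 79.7% in single libraries. For coding exons skipped in decay transcripts, 92.0% became 77.1% at a 20 TPM minimum and 84.1% to 98.3% in single libraries. For stop-bearing exons, 14.2% became 9.47% in the other table, 10.2% at 20 TPM and 12.9% to 14.1% in single libraries. The cause of these shifts was not tested. No paired analysis was possible because the libraries form 1 group.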
